A study of Homo sapiens with 14 samples.

Results

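High-numbered microRNAs (miRNAs), the entries of the miRNA registry miRBase whose number is 3000 or above, were described in the small RNA of extracellular vesicles (EVs) from human epicardial cells. The set comprised every row of the raw count table named miR- followed by such a number that had at least 1 count over the 14 libraries. It held 110 of the 1494 rows numbered 3000 or above, out of 2632 rows in all and 447 rows with a count. The members were thus chosen by their number and by their summed count in these libraries, so their presence is a description rather than a finding. The member with the lowest number was miR-3065-3p, with 1 count, in SB replicate 3. The detected miRNA just below the numeric bound was miR-2277-3p, with 1 count, in NT replicate 4. A further 1384 rows numbered 3000 or above had no count and lay outside the set.

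The EVs, membrane particles that cells release, came from medium conditioned by pro-epicardial cells, precursors of the outer layer of the heart, derived from the human embryonic stem cell line hES-2. All groups shared this 1 line, thawed stocks of these cells and the same supplemented StemPro base medium, and nothing in the labels says that libraries of a group came from separate cultures. NT cells had no additive (3 libraries, replicates 1, 3 and 4). SB cells were held for 8 days in 6 µM SB-431542, which blocks the TGF-β receptor kinases (4 libraries, replicates 1 to 4). TGFb cells were given TGF-β1 at 5 ng/ml over 4 days and went without additive for the next 4 (4 libraries, replicates 1 to 4). FGF cells were kept with basic FGF at 10 ng/ml throughout the 8 days (3 libraries, replicates 2 to 4). The labels call NT cells pro-epicardial, SB cells mature epicardial, and the other groups stimulated epicardial cells, so a comparison with NT spans stage and additive together. From day 4 the medium had passed a 100 kDa filter to lower the EVs already in it, and it was harvested at days 6 and 8, each time with 48 h of contact with the cells. The table holds miRNAs and no marker genes of the epicardium, so the labelled cell types were not checked here, and in such bulk RNA a change in the number of EVs and a change in the RNA per EV cannot be told apart.

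An animal miRNA is cut from a hairpin precursor, loaded into an Argonaute protein and guided to messenger RNAs mainly by its seed, the bases near its 5′ end. miRBase numbers follow the order of entry, so high numbers are late entries, many of them first seen at low abundance by deep sequencing. Some late entries have been questioned as pieces of other abundant RNAs, which is why their sequences are shown before their values.

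The mature sequences below are those of the 11 members with a sequence and at least 10 counts, which carried most counts of the sequenced members, and of a pair of low members found inside mitochondrial RNAs (miR-12136 and miR-4485-3p). They come from RefSeq (build GRCh38.p14), run 5′ to 3′, and have the seed (bases 2 to 8) in capitals.
miR-4516: gGGAGAAGggucggggc
miR-4488: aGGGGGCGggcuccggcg
miR-7704: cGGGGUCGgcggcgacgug
miR-4497: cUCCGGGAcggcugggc
miR-3615: uCUCUCGGcuccucgcggcuc
miR-3168: gAGUUCUAcagucagac
miR-4492: gGGGCUGGgcgcgcgcc
miR-4466: gGGUGCGGgccggcgggg
miR-4443: uUGGAGGCguggguuuu
miR-3187-3p: uUGGCCAUggggcugcgcgg
miR-3196: cGGGGCGGcaggggccuc
miR-12136: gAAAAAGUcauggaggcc
miR-4485-3p: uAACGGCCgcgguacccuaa

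The libraries were shallow, with totals of 115 (FGF replicate 2) to 14862 counts (NT replicate 1), so 1 count was between 0.00673% and 0.870% of a library. The submitters' tables do not say whether a count is a read or a molecular identifier, and intervals and limits given here cover counting error only.

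The set held 2031 of the 47091 counts, or 4.31%. A count was present for 7.36% of the rows numbered 3000 or above, for 21.9% of the 201 rows numbered from 1000 to below 3000, and for 31.3% of the 937 rows numbered below 1000 or named let-7. The signal was concentrated in few members. The highest 5 (miR-4516, miR-4488, miR-7704, miR-4497 and miR-4508) held 1438 counts, 70.8% of the set, and the 13 members with at least 20 counts held 1762, or 86.8%. The other 97 shared 269 counts and none of them exceeded 16. A single count supported 46 members (41.8%), and 23 more had 2 counts. By spread over libraries, 65 members appeared in 1 library, 23 in 2 or 3, and 22 in at least 4. Those found in all 14 libraries were miR-4516, miR-4488 and miR-4497. Of the 110 members, 60 had a count in NT replicate 1 and 24 had a count nowhere else. This library held 32.4% of the set's counts and 31.6% of all counts, so its part in the set was close to its part in the sequencing.

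The summed share of the set ranged more widely within each group than the group means ranged between groups. In NT it was 4.43% (95% Wilson interval 4.11 to 4.78%) in replicate 1, 1.83% (1.58 to 2.12%) in replicate 3 and 10.5% (8.75 to 12.5%) in replicate 4. In SB it was 11.3% (8.38 to 15.1%), 7.82% (4.72 to 12.7%), 6.69% (5.94 to 7.53%) and 13.2% (11.5 to 15.2%) in replicates 1 to 4. In TGFb it was 13.5% (11.8 to 15.3%), 6.93% (4.31 to 11.0%), 1.71% (1.44 to 2.03%) and 4.58% (3.87 to 5.43%) in replicates 1 to 4, and in FGF 16.5% (10.8 to 24.4%), 2.75% (2.24 to 3.37%) and 5.07% (3.80 to 6.74%) in replicates 2 to 4. All 4 groups overlapped, and in each of them replicate 3 was the lowest. The mean was 5.59% ± 4.45 for NT (SD, n = 3), 9.76% ± 3.03 for SB (n = 4), 6.67% ± 5.01 for TGFb (n = 4) and 8.11% ± 7.37 for FGF (n = 3). Single shallow libraries set these means: without FGF replicate 2 the FGF mean was 3.91%, without NT replicate 4 the NT mean was 3.13%, and without TGFb replicate 1 the TGFb mean was 4.41%. No test was made of this sum, because its members were chosen with results of these data known. Within a replicate number, SB lay above NT in 3 of 3 numbers, TGFb in 1 of 3 and FGF in 1 of 2.

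**Figure D1:**
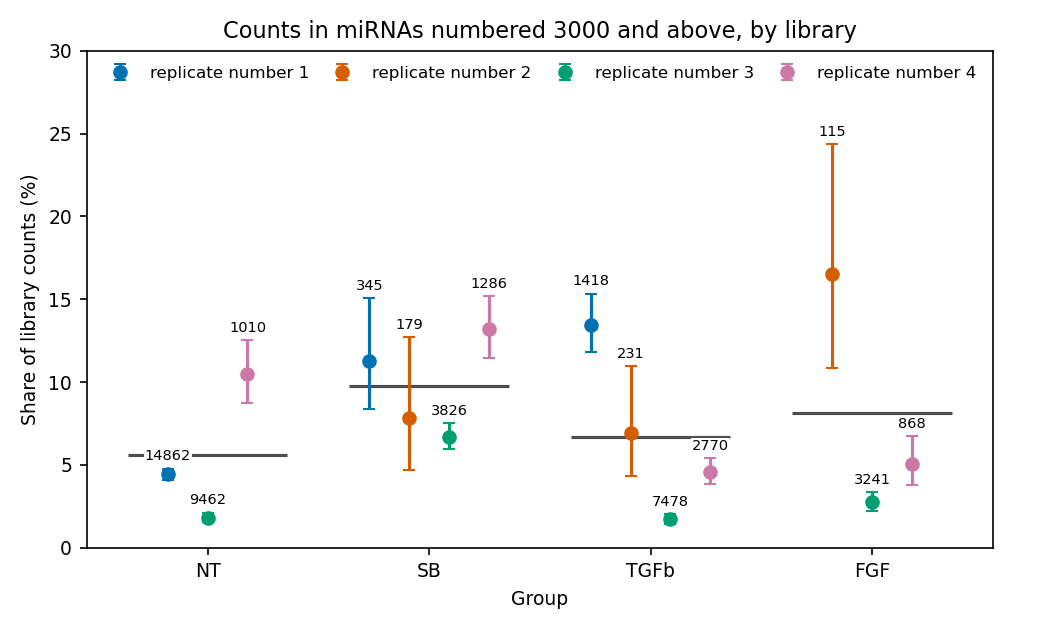
Share of each library's counts (percent, vertical axis) in the 110 high-numbered miRNAs, by group; points are libraries coloured by replicate number, bars are 95% Wilson intervals, lines are group means and the printed numbers are library totals. The groups overlap, and replicate 3 is lowest in each, from 1.71% in TGFb to 6.69% in SB.

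Depth moved with this share. The 5 libraries of at least 3000 counts had shares of 1.71 to 6.69%, and the 9 shallower libraries 4.58 to 16.5%. Replicate 3 had the most counts in 3 of 4 groups. The part of depth in the differences between groups was not tested. When each library was brought to 115 counts by calculation, the expected number of members with a count was 4.11 ± 2.34 for NT (SD, n = 3), 5.45 ± 1.25 for SB (n = 4), 4.45 ± 2.22 for TGFb (n = 4) and 3.81 ± 1.52 for FGF (n = 3). The number observed at full depth spanned 5 (FGF replicate 2) to 60 (NT replicate 1). The libraries of the 4 groups overlapped at that common depth, with SB spanning 4.33 to 7.23 and NT reaching 6.61, although the NT and FGF means lay below the lowest SB library.

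Other rows moved in the same order in part. Rows numbered from 1000 to below 3000 took 6.05% ± 3.22 of counts in NT, 8.23% ± 1.24 in SB, 5.35% ± 0.871 in TGFb and 7.31% ± 1.59 in FGF. A list of 8 lower-numbered miRNAs known for their likeness to other abundant RNAs took 3.41% ± 2.64 in NT, 6.55% ± 1.23 in SB, 3.81% ± 0.987 in TGFb and 6.35% ± 2.03 in FGF. In that list miR-1246 held 1167 counts, and miR-638 and miR-663b were at 0. A list of 7 serum and red-cell miRNAs, a check on carry-over from the medium, took 0.945% ± 1.08 in NT (range 0.161 to 2.18%), 3.20% ± 1.39 in SB (1.52 to 4.47%), 0.833% ± 0.525 in TGFb (0.348 to 1.55%) and 3.07% ± 1.52 in FGF (1.74 to 4.72%). In it 4 of 7 had a count. The red-cell miRNAs miR-451a and miR-144-3p and the lymphocyte miRNA miR-150-5p were at 0 in all 14 libraries. The red-cell miRNA miR-486-5p had 6 counts in 3 libraries, the myeloid miR-223-3p 3 counts in 3, and the liver and serum miR-122-5p 34 counts in 9, at a mean share of 0.478%. miR-16-5p, which many cell types express, held 390 counts. The part of either list in the differences of the high-numbered set was not tested.

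miR-4516 was the member with the most counts (367). It had 105, 29 and 24 counts in NT replicates 1, 3 and 4, 5, 1, 40 and 33 in SB replicates 1 to 4, 17, 2, 28 and 22 in TGFb replicates 1 to 4, and 2, 53 and 6 in FGF replicates 2 to 4. As a share of counts this was 1.13% ± 1.10 for NT (SD, n = 3), 1.40% ± 0.856 for SB (n = 4), 0.808% ± 0.339 for TGFb (n = 4) and 1.36% ± 0.577 for FGF (n = 3). The 4 groups overlapped throughout, and NT replicate 4 and SB replicate 4 were the highest libraries. Without NT replicate 4 the NT mean was 0.506%. miR-4516 lies at chr16:2133120-2133136 on the plus strand (GRCh38), opposite the gene PKD1.

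miR-4488 came next with 355 counts, of which 58.0% were in NT replicate 1. Its counts were 206, 16 and 12 in NT, 4, 1, 22 and 15 in SB, 39, 2, 12 and 18 in TGFb, and 1, 4 and 3 in FGF, in order of replicate number. The shares were 0.914% ± 0.653 for NT (n = 3), 0.865% ± 0.344 for SB (n = 4), 1.11% ± 1.13 for TGFb (n = 4) and 0.446% ± 0.383 for FGF (n = 3). TGFb replicate 1 was the highest library at 2.75% (2.02 to 3.74%), and FGF had the lowest mean while overlapping every other group. Without TGFb replicate 1 the TGFb mean was 0.559%. miR-4488 lies between genes, at chr11:61508599-61508616 on the plus strand.

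miR-7704 was the member whose SB libraries stood apart from NT. It had 30, 19 and 18 counts in NT, 19, 7, 78 and 34 in SB, 25, 0, 0 and 40 in TGFb, and 8, 0 and 6 in FGF. The shares were 0.202%, 0.201% and 1.78% in NT, and 5.51%, 3.91%, 2.04% and 2.64% in SB. The lowest SB library thus lay just above the highest NT library. Their intervals overlapped, at 1.64 to 2.54% in SB replicate 3 and 1.13 to 2.80% in NT replicate 4. Of all tested miRNAs, 8.51% had shares that did not overlap between SB and NT. In TGFb the shares were 1.76%, 0%, 0% and 1.44%, all below SB, and in FGF they were 6.96%, 0% and 0.691%, spanning SB. The FGF mean of 2.55% ± 3.83 (n = 3) was 0.346% without replicate 2, and the NT mean of 0.728% ± 0.913 (n = 3) was 0.201% without replicate 4. The zeros allowed up to 1.30% in TGFb replicate 2, 0.0401% in TGFb replicate 3 and 0.0926% in FGF replicate 3, at 3 counts of the library total, and the last 2 of these limits are below the share in every library that had a count. miR-7704 lies at chr2:176188843-176188861 on the plus strand, in coding exon sequence of HOXD1, a homeobox transcription factor gene, and opposite the long non-coding RNA gene HAGLR.

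miR-4497 had its highest library in TGFb and its lowest group mean in NT. Its counts were 24, 19 and 6 in NT, 6, 1, 69 and 31 in SB, 60, 2, 7 and 9 in TGFb, and 2, 5 and 13 in FGF. The shares were 0.319% ± 0.239 for NT (n = 3), 1.63% ± 0.774 for SB (n = 4), 1.38% ± 1.93 for TGFb (n = 4) and 1.13% ± 0.854 for FGF (n = 3). The SB libraries lay above NT except replicate 2, which had 1 count and 0.559% against 0.594% in NT replicate 4. TGFb replicate 1, at 4.23% (3.30 to 5.41%), was the highest library, while TGFb replicate 3 was the lowest of all at 0.0936% (0.0454 to 0.193%). Without replicate 1 the TGFb mean was 0.428%. miR-4497 lies at chr12:109833350-109833366 on the plus strand, opposite the ion channel gene TRPV4.

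miR-3168 differed from the other abundant members in sequence and in where it was found. It had 0, 3 and 15 counts in NT, 0, 2, 0 and 1 in SB, 8, 0, 4 and 1 in TGFb, and 6, 0 and 1 in FGF. It had no count in NT replicate 1, the deepest library, where 0 of 14862 counts allows up to 0.0202%, and it reached 1.49% (0.902 to 2.44%) in NT replicate 4 and 5.22% (2.41 to 10.9%) in FGF replicate 2. Its group means had standard deviations larger than themselves, 0.506% ± 0.848 in NT, 0.299% ± 0.547 in SB, 0.163% ± 0.268 in TGFb and 1.78% ± 2.98 in FGF, and every group held at least 1 library at 0. Without FGF replicate 2 the FGF mean was 0.0576%, and without NT replicate 4 the NT mean was 0.0159%. As background, the sequence of miR-3168 resembles adapter sequence used in common small RNA library kits. The adapter of the kit used here was not compared with it, so its part in these counts was not tested. miR-3168 lies between genes, at chr13:41101076-41101092 on the minus strand.

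**Figure D2:**
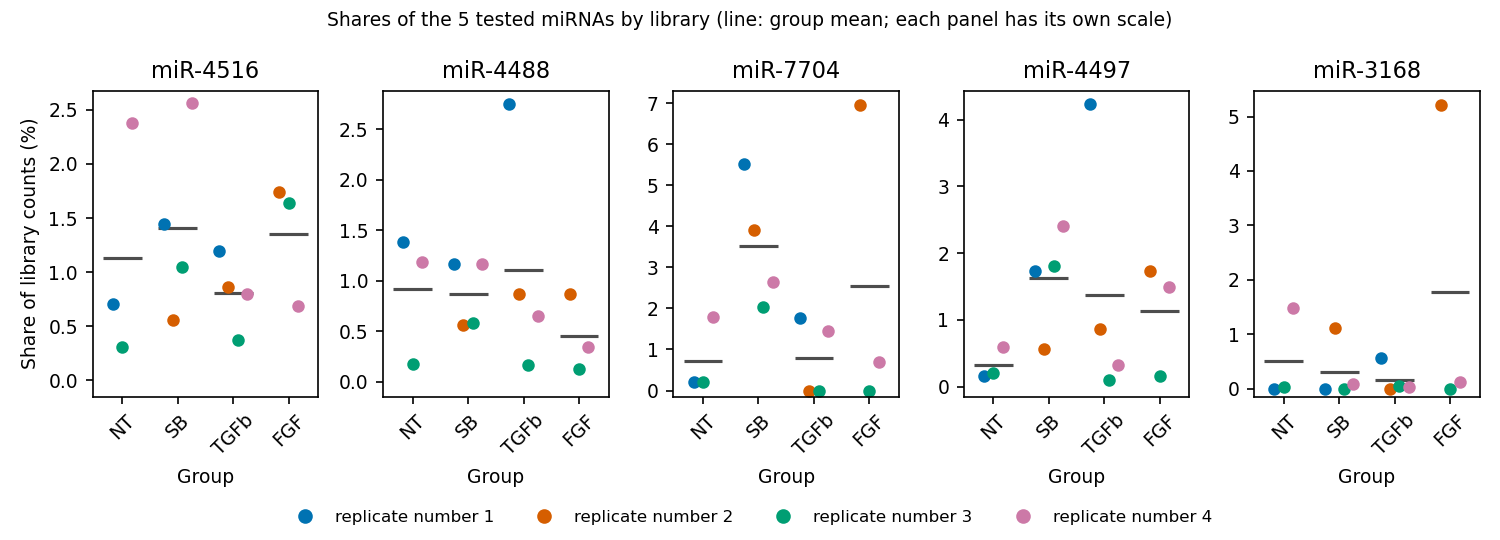
Share of library counts (percent, vertical axis, a scale for each panel) of the 5 tested high-numbered miRNAs by group; points are libraries coloured by replicate number and lines are group means. The 4 SB libraries of miR-7704, at 2.04 to 5.51%, lie above the NT libraries. Shares of SB and NT did not overlap for 8.51% of all tested miRNAs. The high means of miR-4497 in TGFb and miR-3168 in FGF each rest on 1 library.

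The remaining 8 members with at least 20 counts did not pass the filter, which asks for a minimum level relative to depth in enough libraries and not for a summed count alone. miR-4508 had 178 counts, with 81, 8 and 13 in NT, 1, 0, 12 and 22 in SB, 9, 0, 14 and 16 in TGFb, and 0, 1 and 1 in FGF. Its mean share was 0.639% ± 0.607 in NT (n = 3) and 0.0487% ± 0.0596 in FGF (n = 3), where FGF replicate 3 held 1 count in 3241. Without NT replicate 4 the NT mean was 0.315%, and without FGF replicate 4 the FGF mean was 0.0154%. NT replicate 3, at 0.0845%, lay below FGF replicate 4, at 0.115%, so the groups overlapped. miR-3960 (85 counts) appeared in 12 libraries at group means of 0.297% in NT, 0.334% in SB, 0.504% in TGFb and 0.156% in FGF. Their order rests on single libraries, since the TGFb mean was 0.239% without TGFb replicate 2 (3 counts of 231), the NT mean 0.148% without NT replicate 4, the SB mean 0.212% without SB replicate 4 and the FGF mean 0.0617% without FGF replicate 4. miR-3615 had 51 counts, of which 64.7% came from NT replicate 1. miR-3195 had 45 counts, with means of 0.115% in NT, 0.0131% ± 0.0261 in SB, 0.287% ± 0.250 in TGFb and 0.0693% in FGF. The 2 SB counts were all in replicate 3, and the zeros in SB replicates 1, 2 and 4 allowed up to 0.870%, 1.68% and 0.233%. In TGFb, replicate 1 had 8 counts and replicate 2 had 1 count of 231, while replicates 3 and 4 were at 0.0802% and 0.0722%.

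The lowest of the 13 were seen in 5 to 9 libraries each. miR-4492 had 25 counts, 80% of them from NT replicate 1 (20 counts), and none in SB or FGF. Its share in NT replicate 1, 0.135% (0.0871 to 0.208%), lay above the limits that the zeros allow in SB replicate 3 (0.0784%) and FGF replicate 3 (0.0926%). It lay below those of the other SB and FGF libraries, which ran from 0.233 to 2.61%. NT replicate 3 was also at 0, with a limit of 0.0317%, and NT replicate 4 had 1 count. The contrast of NT with SB and FGF thus rests on NT replicate 1 and was not tested in the main fit. The fit without an expression filter, given below, included miR-4492. miR-4466 had 20 counts, 10 of them in NT replicate 3, and none in FGF. miR-10401-3p (33 counts) had 1 count in all of TGFb and a mean of 0.216% in SB, which was 0.0952% without SB replicate 1. miR-10400-5p (24 counts) had group means of 0.0170% in NT to 0.270% in TGFb, and the TGFb mean was 0.0711% without TGFb replicate 2 (2 counts of 231).

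**Figure D3:**
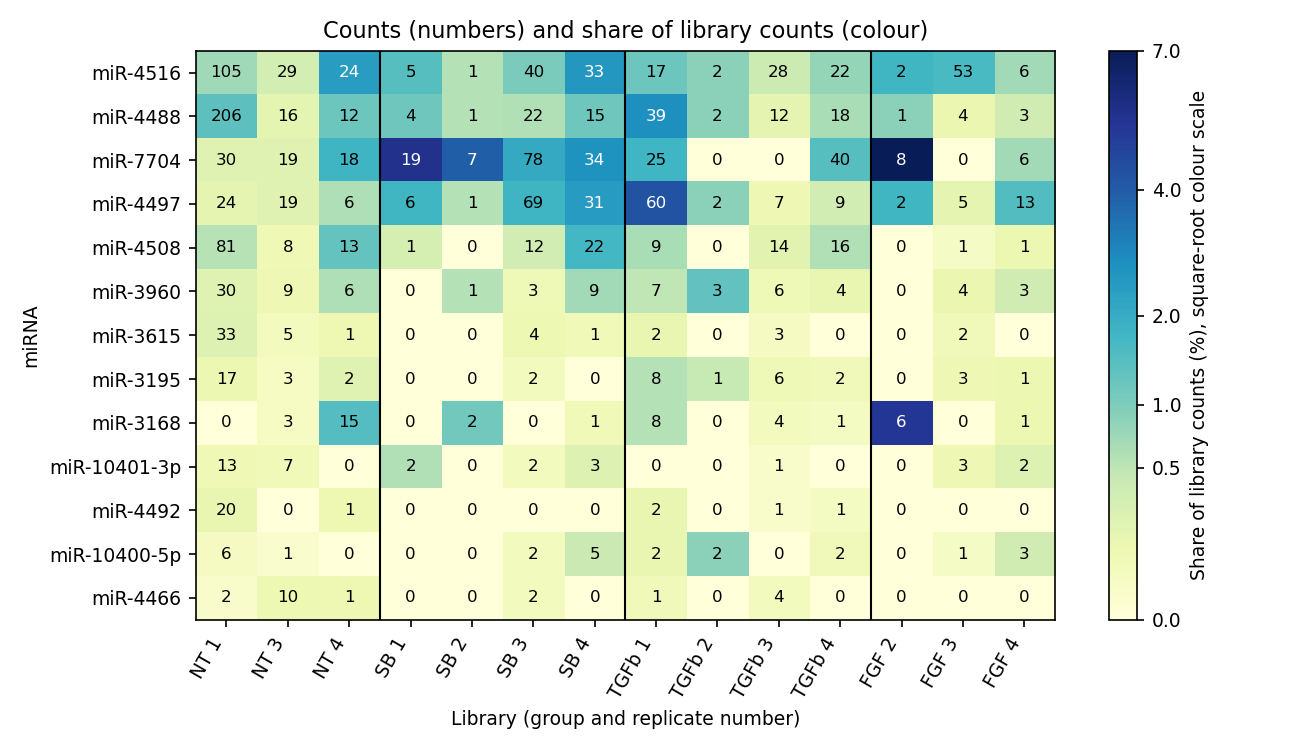
Counts (printed) and share of library counts (colour, percent, square-root scale) of the 13 high-numbered miRNAs with at least 20 counts (rows) in the 14 libraries (columns, by group and replicate number). The first 4 rows have a count in 11 to 14 libraries, while miR-4492 is at 0 in all SB and FGF libraries, NT replicate 3 and TGFb replicate 2.

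The comparisons asked whether EV content of these miRNAs differed between the sources. Counts sufficed to test 47 miRNAs, and 5 of the 110 members were among them (miR-4516, miR-4488, miR-7704, miR-4497 and miR-3168, with 64.1% of the set's counts). The other 105 were not tested in this main fit. No member passed an adjusted p of 0.05 in edgeR's quasi-likelihood test with Benjamini-Hochberg adjustment in any of the 6 pairwise comparisons or in the test over the 4 groups. Among all 47 tested miRNAs, edgeR called 2.13% for SB and for FGF when set against NT, and 0% in each of the other comparisons. DESeq2 called 0 members too, where it called 6.38% of all tested miRNAs for SB against NT, 2.13% each for FGF against NT, FGF against SB and TGFb against FGF, 4.26% over the 4 groups, and 0% for TGFb against NT or SB.

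Without adjustment, 1 of the 5 members was under 0.05 in SB against NT (background 12.8% of tested miRNAs), 1 in TGFb against NT (4.26%) and 1 in TGFb against FGF (14.9%). The count was 0 when FGF was compared with NT (background 17%), TGFb with SB (8.51%), FGF with SB (6.38%) and all 4 groups (10.6%). By DESeq2 the unadjusted counts were 1 in SB against NT (background 17%), 1 in TGFb against NT (4.26%) and 0 in the others, where the background was 19.1% for FGF against NT, 4.26% for FGF against SB and 8.51% for the rest. With no expression filter all 110 members and 447 rows entered the edgeR fit. The adjusted calls were then 0 of 110 members in every comparison (background 0.224% for FGF against NT and over the 4 groups, 0% in the rest). Unadjusted, 5 members were under 0.05 for SB against NT (background 6.94% of rows), 4 for TGFb against NT (4.03%), 5 for FGF against NT (7.38%), 4 for TGFb against SB (3.8%), 1 for FGF against SB (4.25%), 2 for TGFb against FGF (3.8%) and 2 over the 4 groups (5.37%). The 3 comparisons with NT share its libraries and are not independent.

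In SB against NT, miR-4497 had the largest fold change of the members, 2.46 on the log2 scale (SE 1.11, adjusted p = 0.276 by edgeR with Benjamini-Hochberg adjustment), and SB was higher in 3 of 3 replicate numbers. Library scaling is by TMM, which sets the fold changes apart from ratios of the shares above. miR-7704 was 2.31 higher in SB (SE 1.61, edgeR adjusted p = 0.456), also in 3 of 3 numbers, and with 1 library left out at a time the difference ran from 1.60 (without NT replicate 3) to 3.66 (without NT replicate 4). It was the 1 member of 5 whose library shares did not overlap between SB and NT, against 8.51% of all tested miRNAs. miR-4516 (0.39, SE 0.81), miR-4488 (-0.26, SE 0.87) and miR-3168 (-1.84, SE 2.36) differed by less than their standard errors. Even so, miR-4516 was also higher in SB in 3 of 3 numbers, while miR-4488 was in 1 of 3 and miR-3168 in 0 of 3. The share of all tested miRNAs going the same way in every number was not computed, here or in the comparisons below. Over the 5 members the median log2 fold change was 0.39, with 3 above 0 and 2 below, and over all 47 it was -0.04, with 23 above and 24 below.

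In TGFb against NT, miR-4497 had a log2 fold change of 2.47 (SE 1.10, adjusted p = 0.799 by edgeR with Benjamini-Hochberg adjustment). It was higher in TGFb in 1 of 3 replicate numbers, and without TGFb replicate 1 the log2 fold change was 0.10. The other 4 members lay between -0.86 and 0.73, within their standard errors, and none of the 5 had shares that did not overlap (background 8.51%). The median was 0.39 over the members, 3 above 0 and 2 below, and 0.09 over all tested miRNAs.

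In FGF against NT, miR-4488 had the largest difference, -2.08 on the log2 scale (SE 1.09, edgeR adjusted p = 0.288), and FGF was lower in 2 of 2 shared replicate numbers. It was -1.08 with the replicate number as a block, -0.62 in the adjusted table, and from -3.08 (without NT replicate 3) to -1.39 (without NT replicate 1) with 1 library left out. miR-4497 was at 1.34 (SE 1.19), miR-7704 at 0.92 (SE 1.80), miR-3168 at 0.89 (SE 2.22) and miR-4516 at -0.04 (SE 0.88). Within the shared replicate numbers, miR-7704 and miR-3168 were lower in FGF in 2 of 2, against the sign of their fold changes. Their positive values rest on FGF replicate 2, without which they were -1.53 and -3.55. miR-4497 and miR-4516 were each higher in FGF in 1 of 2 numbers. Of the 5 members, 0 had shares that did not overlap, where 17% of all tested miRNAs did. The medians were 0.89 over the members, with 3 above 0 and 2 below, and 0.00 over all tested miRNAs.

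**Figure D4:**
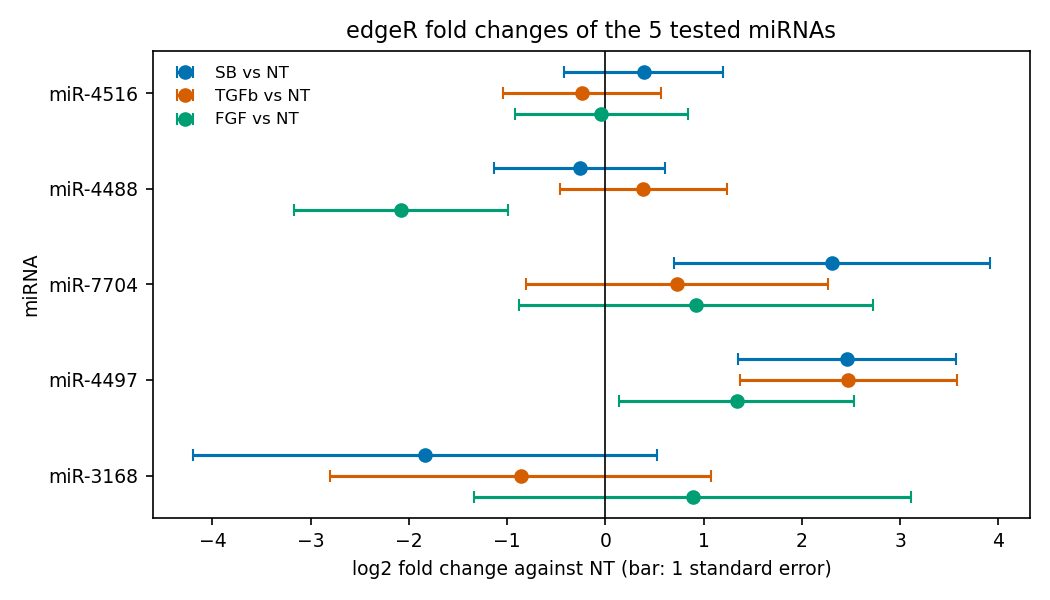
Log2 fold change against NT (horizontal axis, edgeR, bars 1 standard error) of the 5 tested high-numbered miRNAs in SB, TGFb and FGF, 3 comparisons that share the NT libraries. miR-4497 in SB and TGFb, miR-7704 in SB and miR-4488 in FGF lie farther than 1 standard error from 0, as does miR-4497 in FGF.

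Between the other groups, miR-7704 was lower in TGFb than in SB by -1.58 (log2, SE 1.42, edgeR adjusted p = 0.879), in 4 of 4 replicate numbers and with shares that did not overlap (1 of 5 members, against a background of 8.51%). In FGF against SB the 5 members had a median of -1.12, with 1 above 0 and 4 below, and all 47 miRNAs one of -0.09, with 21 above and 26 below. The members ran from -1.82 (miR-4488, SE 1.08) to 2.72 (miR-3168, SE 2.58), and 0 of 5 had shares that did not overlap (background 10.6%). In TGFb against FGF, miR-4488 was higher in TGFb by 2.47 (SE 1.07, edgeR adjusted p = 0.278), in 2 of 3 numbers. The difference was 1.12 without TGFb replicate 1, 1.41 with the block and 0.28 in the adjusted table. Of the 5 members, 0 had shares that did not overlap (background 14.9%).

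What the abundant members shared beyond the rule was in their sequences, printed above. RefSeq gave a mature sequence for 96 of the 110 members, which held 80.4% of the set's counts. The 14 others include miR-4508, miR-3960, miR-3195, miR-10401-3p and miR-10400-5p. Of the 8 members with a sequence and at least 20 counts, 7 were 19 bases or shorter, and miR-3615 had 21. The same length was found in 11.4% of the 88 members under 20 counts. It was found in 12.3% of the 1240 sequenced rows numbered 3000 or above that had no count. Of the 41 detected and sequenced rows numbered from 1000 to below 3000 it was found in 17.1%, close to the 17.7% of all 96 members. For the 269 detected miRNAs numbered below 1000 or named let-7 it was 0.372%. The 17 members of 19 bases or fewer held 85.8% of the counts of sequenced members. Among rows numbered 3000 or above, 10% of the 170 short entries and 6.78% of the 1166 longer ones had a count.

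These sequences were also rich in G and C. The median GC content was 83.3% over the 8 abundant sequenced members, 63.4% over all 96, 54.5% over the undetected rows numbered 3000 or above, 63.6% over detected rows numbered from 1000 to below 3000, and 50% over detected rows below 1000. When all sequenced rows numbered 3000 or above were split into 4 bands of GC content of near-equal size, 1.45%, 6.73%, 7.65% and 13.5% had a count, from the lowest band to the highest, and the highest (over 63.6% GC) held 88.9% of the counts. The run GGGG, searched on the RNA strand as printed, occurred in 38.5% of members, including miR-4488, miR-7704, miR-4516, miR-4492 and miR-4466, in 13.6% of undetected rows, and in 15.4% of all rows numbered 3000 or above. miR-3168, at 47.1% GC, was the exception among the abundant members. The sequences are a description of what was counted, and their part in detection was not tested.

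**Figure D5:**
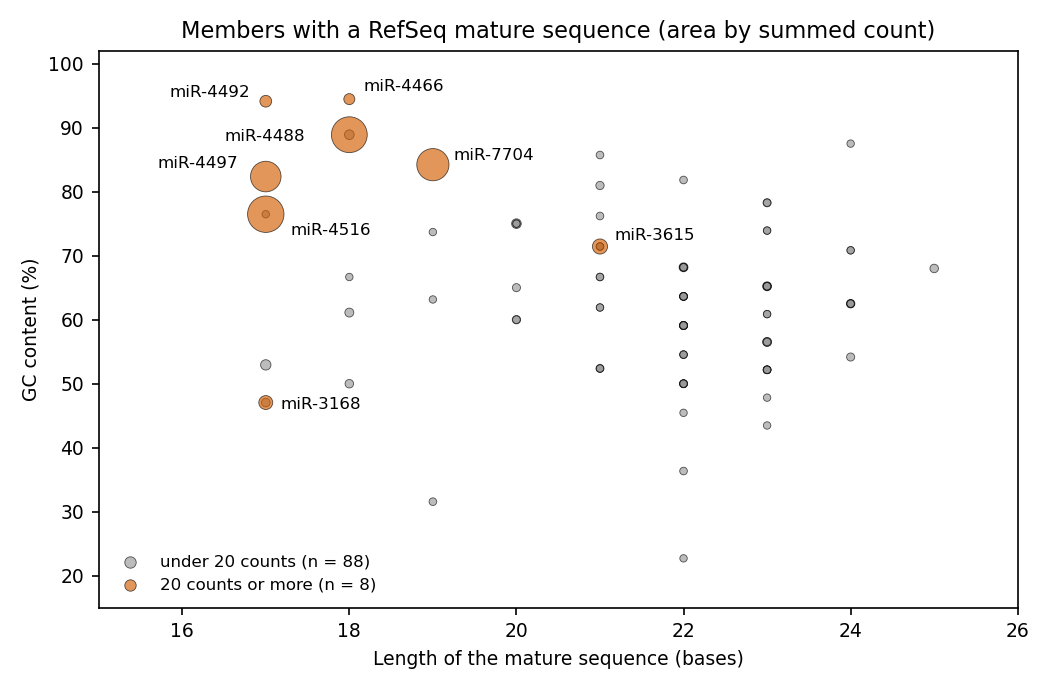
GC content (percent, vertical axis) against length (bases, horizontal axis) of the 96 high-numbered miRNAs with a RefSeq mature sequence; point area grows with the summed count and members with at least 20 counts are in orange. All of these but miR-3615 are 17 to 19 bases long, and all but miR-3168 have at least 71.4% GC.

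Matches to other RNAs were few in the transcripts available. Against 5722 ribosomal, transfer, small nuclear, small nucleolar and like transcripts of GENCODE release 29, with at most 1 substitution over the whole miRNA, 3 of 96 members (3.13%) matched, as did 0.323% of undetected rows. Among detected rows, 12.2% of those numbered from 1000 to below 3000 matched, and 1.12% of those numbered below 1000 or named let-7. miR-12136 is identical to bases 1 to 18 of MT-TS1, a mitochondrial serine transfer RNA, and miR-4485-3p to bases 893 to 912 of MT-RNR2, the large mitochondrial ribosomal RNA. miR-5701 matched SNORD43, a small nucleolar RNA, at bases 44 to 62 with 1 substitution. The cytoplasmic 18S and 28S ribosomal RNAs and their precursor were not used here, so a match of the GC-rich members to them was not tested.

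The mitochondrial matches were sparse and fell mostly in replicate 3. Replicate 3 also had the most counts in 3 of 4 groups, and the part of depth was not tested. miR-12136 had 4 counts in NT replicate 3, 1 in SB replicate 3 and 1 in TGFb replicate 3. miR-4485-3p had 4 counts in TGFb replicate 3 and 1 in NT replicate 1. miR-5701 had 2 counts, both in SB replicate 4. Over all annotated transcripts other than miRNAs, 24 members had an exact match, among them miR-7704 in HOXD1 messenger RNA and miR-3615 in that of SLC9A3R1, a scaffold protein gene. Both miR-7704 and miR-3615 lie in an exon of the matched gene on the same strand. Their matches are thus to the transcripts of the genes in which they lie. Whether their counts came from pieces of these messenger RNAs was not tested, nor was a match to the cytoplasmic ribosomal RNAs.

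Position did not run with abundance in a simple way. Of the 96 placed members, 52 lay in introns and held 139 counts, 24 lay in exons (377 counts), 10 lay opposite a gene (684) and 10 lay between genes (432). miR-4516 and miR-4497 made up most of the counts opposite a gene, and miR-4488 most of those between genes. Others opposite a gene were miR-4492 (chr11:118910765-118910781, plus strand, opposite BCL9L) and miR-4466 (chr6:156779710-156779727, minus strand, opposite ARID1B). miR-3615 (chr17:74748663-74748683, plus strand) lies in an untranslated exon part of SLC9A3R1, and miR-4443 (chr3:48196572-48196588, plus strand) between genes.

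Seeds were almost all distinct. The 96 sequenced members had 94 different seeds, and the abundant ones shared none with each other. miR-4492 shared GGGCUGG with miR-5001-5p, and miR-6511a-3p shared CUCACCA with miR-6511b-3p. A seed in common with a detected lower-numbered miRNA was found for 4 members, each of 1 or 2 counts. They were miR-4429 (with miR-320b, miR-320c and miR-320d), miR-4665-5p (with miR-1275), miR-6785-5p (with miR-149-3p) and miR-6775-3p (with miR-1291).

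The authors' adjusted table changed the members unevenly. It altered 124 of the 297 member values above 0 and none of the zeros. The set's share of adjusted values was higher than its share of raw counts in 4 of 4 libraries with replicate number 3, in 0 of 3 with number 1, in 0 of 3 with number 2 and in 2 of 4 with number 4. In SB replicate 3 it went from 6.69% to 18.9%, and in NT replicate 3 from 1.83% to 5.26%. Single members moved more, as with miR-7704 in SB replicate 3 (2.04% to 9.34%), miR-4497 in TGFb replicate 1 (4.23% to 1.40%) and miR-3168 in FGF replicate 2 (5.22% to 0.870%). The group means of the set became 6.97% in NT, 11.4% in SB, 5.58% in TGFb and 8.05% in FGF, which put TGFb below NT where the raw counts had it above.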

How the data were processed

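Small RNA of EVs was sequenced in 14 libraries. EV precipitation (miRCURY, polyethylene glycol), RNA extraction (miRNeasy Micro) and library preparation (QIAseq miRNA) used kits, per the labels' protocols. The submitters' processing notes name the build GRCh38; aligner, annotation, version and use of molecular identifiers are not given in the sources used here. The deposited raw table holds whole-number counts per mature miRNA, without normalization. The authors also deposited adjusted values, treated as a score because no header or label says how they were made. Their 14 columns of CPM per library and 4 of group mean CPM were not used, and 2 lines naming no miRNA were left out.

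All 14 libraries entered 1 edgeR 4.0.16 fit (R 4.3.3) of the whole table: quasi-likelihood with robust estimation, TMM, filterByExpr (minimum count 10, by group; 47 miRNAs left, library sizes recomputed), group means only, and Benjamini-Hochberg adjustment within each comparison at 0.05. The standard error is |log2 fold change| over the root of the F statistic. P-values measure the spread between these libraries, which may be technical. Shares are counts over the library total, with 95% Wilson intervals (scipy 1.17.1). A count of 0 allows up to 3 counts. Sequences were matched by name to RefSeq, and positions and transcripts to GENCODE release 29. Alternatives were RLE factors, DESeq2 1.42.0, no filter, a replicate block, the adjusted table (limma 3.58.1, prior count 2), the 2 groups compared alone, libraries of at least 500 counts, each library left out and, added after the data were seen, library size only.

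The members and lists were chosen with earlier results of these data known. Members named with values were miR-4488, miR-4497, miR-7704 and miR-3168, those tested, those with at least 20 counts, the miRNAs at the edge of the rule and those matching a structural RNA. Members named for a shared seed, a position or an exact transcript match were picked after their values were seen.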

Additional observations from a re-analysis of the deposited data

Results flagged for a closer look

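In groups of 4 libraries, a library was marked when its gap to the nearest other, divided by the group's range, exceeded 0.829, the 95% critical value of Dixon's test. Of 27 sets of shares examined, 7 were marked. Chance marks about 1 in 20 sets of continuous values, but the ratio is 1 by construction where 1 library alone has a count, so that rate does not hold here and the 7 cannot be read as an excess. In each the highest library stood apart. In SB these were miR-3195 (ratio 1) and miR-4466 (1), each with 2 counts in replicate 3 and none elsewhere in the group, miR-3168 (0.930), with 2 counts in replicate 2, and miR-10400-5p (0.866), with 5 counts in replicate 4. In TGFb they were miR-10401-3p (1), with 1 count in replicate 3, miR-10400-5p (0.837), with 2 counts in replicate 2, and miR-3168 (0.905), with 8 counts in replicate 1. All 7 rest on 1 to 8 counts in the library that stood apart.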

How the results depend on the processing

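No member was called in any comparison under any of the 22 other settings, while calls over all tested miRNAs ranged from 0 in many of them to 9 of 53 for SB and 8 of 53 for FGF, each compared with NT without its replicate 4, and 4 of 47 over the 4 groups with the replicate block. The smallest adjusted p of a member was 0.0793 (miR-4497, SB against NT, range 0.0793 to 0.661). Of 16 log2 fold changes followed, 5 kept their sign and 11 did not. Same-numbered libraries of different groups deviated together at a mean correlation of 0.297 over 18 pairs (0.0258 to 0.613, 15 above 0.1). Libraries with the same number thus resembled each other. The main fit still had no replicate block, because the labels state no pairing, and the block was fitted as an alternative. With the replicate block, miR-4488 in SB against NT was 0.46, miR-4516 in TGFb against NT 0.014 and in FGF against NT 0.62, and miR-3168 in FGF against NT -0.97. With the adjusted table, miR-4488 was 0.15 in SB and -0.34 in TGFb, miR-7704 -1.19 in TGFb, and in FGF miR-3168 was -0.90 and miR-4516 0.71, each against NT. Without a filter miR-4488 in TGFb was -0.021, with library size only miR-4516 in FGF was 0.25, and with libraries of at least 500 counts miR-3168 in FGF was -3.59 and miR-7704 in FGF -1.84. The cause of these changes was not tested. Leaving out 1 library at a time also turned signs. Against NT, the range in SB was -2.68 to 2.34 for miR-3168, -1.39 to 0.30 for miR-4488 and -0.46 to 1.23 for miR-4516. In TGFb it was -2.71 to 3.35 for miR-3168, -0.93 to 1.30 for miR-4488 and -0.79 to 0.57 for miR-4516. In FGF it was -3.55 to 5.04 for miR-3168, -0.16 to 1.80 for miR-4497, -1.07 to 0.79 for miR-4516 and -1.53 to 2.22 for miR-7704. Of these 10 upper bounds, 8 came without NT replicate 4 and both of miR-4488 without NT replicate 1; the lower bounds came without NT replicate 1 or 3 (SB), NT replicate 3 or TGFb replicate 1 (TGFb), or 1 of the FGF libraries (FGF). Library size in place of TMM moved the median of all tested miRNAs by 0.43 in FGF against NT and by -0.57 in TGFb against FGF.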

Other observations

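Below the 13 members described above, 8 members had 8 to 16 counts, 83 in all, and were chosen here after their values were seen. miR-4443 was the most evenly spread, with 2 counts in each NT library, 1 and 3 in SB replicates 1 and 4, 1 and 2 in TGFb replicates 3 and 4, and 3 in FGF replicate 3. miR-3187-3p (12 counts) reached 7 libraries and miR-3196 (12) reached 5. The others, miR-6821-5p, miR-4725-3p, miR-6747-3p, miR-6777-5p and miR-7977, had 8 to 11 counts in 2 to 5 libraries, and miR-7977 had 7 of its 8 in NT replicate 1. None of these 8 had a count in FGF replicate 2, SB replicate 2 or TGFb replicate 2, the libraries of 115, 179 and 231 counts. A count of 0 there allows up to 2.61%, 1.68% and 1.30%.

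A hairpin precursor can give a mature miRNA from either arm. Members whose names carry an arm (5p or 3p) came from 64 hairpins, and both arms were found for 6 of them. These were miR-10401 (1 count of the 5p arm and 33 of the 3p arm), miR-3605 (1 and 7), miR-4640 (1 and 2), miR-6511b (1 and 1), miR-6789 (1 and 2) and miR-7111 (2 and 2). In 5 of the 6, both arms had a count in 1 and the same library, and for miR-4640 they were in different libraries. With so few counts, a preference for an arm was not tested.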
